A study of Mus musculus with 45 samples.

Results

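The small proline-rich (Sprr) proteins are made in surface epithelia, where transglutaminases can join them to other proteins in the hardened envelope of squamous cells. Several Sprr2 genes are also known as genes of the uterine lining that respond to oestrogen. In the mouse the family forms a dense array within the epidermal differentiation complex, beside genes for loricrin, involucrin and S100 proteins.

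The family is described here in the uterus of Plag1 knockout (Plag1KO, or KO) and wildtype (WT) mice. It comprised 9 genes, Sprr1a, Sprr2b, Sprr2d, Sprr2e, Sprr2f, Sprr2g, Sprr2h, Sprr2i and Sprr2k, out of 24422 gene symbols in the count table. They were taken by symbol, and the list was chosen from measured values: differences between endometrium and myometrium, and between mice, were already in view. Levels, co-variation between mice and layer differences of the members are therefore given as a description, with no test. The table held 16 Sprr symbols, and the 7 that were not members are mentioned only where they bear on a member.

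The study asked whether the reproductive tract of the mother differed when Plag1, a zinc finger transcription factor gene, was inactivated. Females of the outbred CD-1 stock, 1 to 3 months old, came from a colony kept by breeding heterozygotes. All of them, WT and KO, were superovulated with 5 IU of pregnant mare serum gonadotropin and, 2 days later, 5 IU of hCG, and were killed the next day. No group lacked hormone treatment, and whether a given female had been mated was not given in the sources used here. From each mouse a piece of whole uterine horn (uterus), the scraped mucosa (endometrium) and the muscle wall left behind (myometrium) entered STRT RNA-seq, which counts the 5′ ends of transcripts. A level therefore does not scale with transcript length, and levels of different genes were compared as CPM, counts scaled to a common library size.

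There were 6 groups of 7 mice: WT and KO in uterus, endometrium and myometrium. Each mouse and tissue sample held 256298 to 2431043 gene counts, so that a floor of 3 counts corresponded to 1.24 to 9.82 CPM. The deepest sample was the sum of 3 libraries of KO mouse 13. Plag1 itself had 7 counts over the 42 samples, at most 1 in any sample, and could not be used to check the genotype labels. Tissue labels were checked against markers. In WT mice 10 of 10 epithelial markers were higher in endometrium than in myometrium and 6 of 6 smooth muscle markers were lower. The same counts were obtained in KO mice (edgeR, adjusted p under 0.05). Some scrapings carried muscle: the 6 smooth muscle genes summed to 13340 CPM in the endometrium of WT mouse 3 and 13250 CPM in that of KO mouse 13, against group medians of 1852 and 656.7 CPM. The endometrium of WT mouse 8 stood out for the oviduct markers, Ovgp1, Foxj1 and Pax2, with 5119 CPM against a group median of 79.64.

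The 9 members lay on chromosome 3 within 169.2 kb, from 92120627 to 92289816 of the mm9 build used for the counts. None overlapped another annotated gene. Sprr2f (92169109 to 92170364) and Sprr2g (92177837 to 92179151) were neighbours on the plus strand, and Sprr1a (92287877 to 92289816) was read from the minus strand. Copies of this family are alike, which limits how reads can be assigned. The first 50 bases of the annotated Sprr2b transcript were the same as those of Sprr2a3, a gene outside the list, so counts of Sprr2b are uncertain. Windows of 40 bases within the first 100 bases of a transcript were searched for exact matches in transcripts of other genes. Of these windows 26.2% matched for Sprr2b and 32.8% for Sprr2e and for Sprr2i. The share was 0% for Sprr2f, for Sprr2g and for Sprr1a.

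Promoter sequences were compared because members with very different levels sat side by side in the array. In the RefSeq table of promoters (build GRCm38.p6), 8 of the 9 members had an entry, Sprr2g being the exception. The 250 bases before the start are shown 5′ to 3′ on the strand of the gene for the most abundant member (Sprr2f), for its nearly silent neighbour (Sprr2e), for a member with no count (Sprr2i) and for the more distant relative (Sprr1a). Capitals mark matches on either strand to TGANTCA (the core bound by AP-1 factors), ATTTGCAT (the octamer) or TATAAA (the TATA box). The motifs were chosen after these sequences and the levels had been seen.
Sprr2f, chr3:92364937-92365186, plus strand: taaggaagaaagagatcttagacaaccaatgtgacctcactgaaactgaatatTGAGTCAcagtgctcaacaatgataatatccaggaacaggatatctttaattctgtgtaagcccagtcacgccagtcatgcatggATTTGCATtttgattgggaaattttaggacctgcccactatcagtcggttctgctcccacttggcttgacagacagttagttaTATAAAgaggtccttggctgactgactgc
Sprr2e, chr3:92351893-92352142, plus strand: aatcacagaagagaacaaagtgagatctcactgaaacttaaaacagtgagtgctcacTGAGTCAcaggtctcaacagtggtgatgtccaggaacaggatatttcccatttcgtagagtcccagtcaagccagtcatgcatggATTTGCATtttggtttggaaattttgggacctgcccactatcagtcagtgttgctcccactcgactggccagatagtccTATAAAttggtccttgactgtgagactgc
Sprr2i, chr3:92407741-92407990, plus strand: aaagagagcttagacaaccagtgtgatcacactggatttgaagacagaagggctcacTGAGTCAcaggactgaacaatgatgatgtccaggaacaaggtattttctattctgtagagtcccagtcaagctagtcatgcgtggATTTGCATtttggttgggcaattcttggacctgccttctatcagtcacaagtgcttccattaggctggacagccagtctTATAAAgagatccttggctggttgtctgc
Sprr1a, chr3:92485882-92486131, minus strand: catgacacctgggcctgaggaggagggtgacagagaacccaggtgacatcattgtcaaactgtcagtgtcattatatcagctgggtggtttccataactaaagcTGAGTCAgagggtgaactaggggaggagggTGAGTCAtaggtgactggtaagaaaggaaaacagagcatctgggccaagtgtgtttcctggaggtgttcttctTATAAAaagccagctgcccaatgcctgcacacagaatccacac

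The AP-1 core was present in 8 of 8 member promoters, against 6.7% of 32851 RefSeq promoters of the same length. The octamer was present in 7 of 8, all but Sprr1a, against 1.6% of all promoters, and the TATA box in 8 of 8 against 12.4%. Counted back from the start, the TATA box began at position -29 in each of the 7 Sprr2 promoters in the table and at -43 in Sprr1a. The octamer began at -112 in Sprr2f and at -108 in Sprr2e and Sprr2i. The AP-1 core began at -197 in Sprr2f and at -193 in Sprr2e and Sprr2i. The marked motifs did not overlap. The palindrome bound by oestrogen receptors, GGTCANNNTGACC, was in 0 of 8 member promoters and 0.1% of all promoters. Its repeated core GGTCA, which is part of that palindrome, was in 1 of 8, Sprr2f at -219, against 35.2% of all promoters. Over the 250 bases Sprr2f matched Sprr2e at 73.6%, Sprr2i at 73.2% and Sprr1a at 45.2%. The AP-1, octamer and TATA matches were present alike in the abundant Sprr2f, in Sprr2i, which had no count, and in Sprr2e, which had 4, while the GGTCA match was in Sprr2f only. These promoters share their origin, so the matches are not independent of each other.

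A single gene supplied most of the family's transcripts. Sprr2f contributed 11961 counts, 79.3% of all counts of the 9 members, and had a mean level of 411.8 CPM over the 42 samples. Sprr2g contributed 2770 counts (18.4%) at a mean of 88.6 CPM, and Sprr1a 267 counts (1.77%) at a mean of 9.36 CPM. Sprr2f and Sprr2g were both detected in 41 of 42 samples, and the exception was the myometrium of KO mouse 4 in both cases. Sprr1a had a count in 30 samples and reached 3 counts in 16.

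The other members were sparse or absent. Sprr2b had 48 counts in 11 samples and Sprr2d had 41 counts in 7. Sprr2e had 4 counts in 3 samples and never reached 3 in any of them. Sprr2h, Sprr2i and Sprr2k had 0 counts in all 42 samples, which leaves levels below each sample's floor undetectable at this depth. Of the Sprr genes outside the list, Sprr2a3 had 6 counts and the other 6 had 0.

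**Figure D1:**
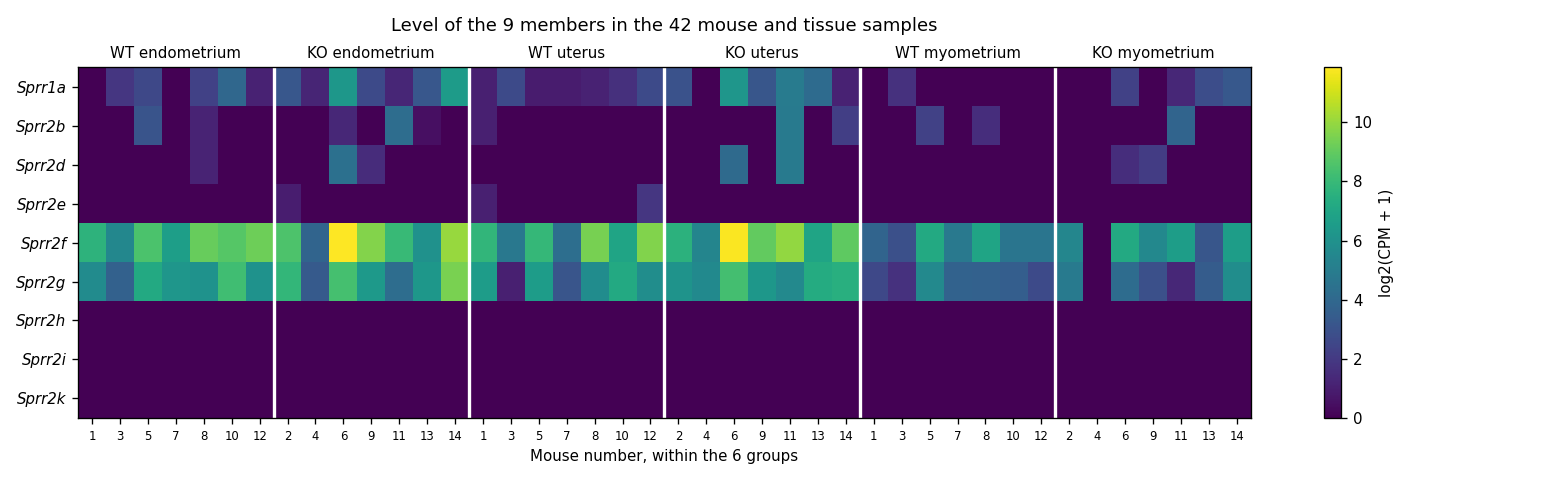
Level of each member (rows) in each mouse of the 6 groups (columns), as log2(CPM + 1). Sprr2f and Sprr2g are detected in 41 of 42 samples, Sprr1a in 30, and Sprr2h, Sprr2i and Sprr2k in none.

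Sprr2b and Sprr2d were carried by few animals. In KO mouse 11 Sprr2b had 13 counts in uterus, 13 in endometrium and 9 in myometrium. Those were 27.54, 17.99 and 13.2 CPM, and each was the highest value of its group. The next highest counts of Sprr2b were 3 or fewer in each group. Sprr2d reached 13 counts in the uterus of KO mouse 11, 11 in the uterus of KO mouse 6 and 13 in the endometrium of KO mouse 6, and had 0 counts in the endometrium of mouse 11. In WT mice Sprr2d had 1 count in all, in the endometrium of mouse 8.

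Levels of Sprr2f varied widely within every group. In WT endometrium the lowest of the 7 mice had 44.4 CPM, the median was 359.5 CPM and the highest had 609.5 CPM. In KO endometrium these values were 13.4, 375.3 and 3720 CPM. Mouse 6 lay far above the rest of the KO group, and mouse 4 lay below all WT mice.

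In whole uterus Sprr2f ranged from 18.8 to 786.7 CPM in WT mice, with a median of 226.0 CPM. In KO uterus it ranged from 41.3 to 3498 CPM with a median of 475.5 CPM, and mouse 6 was again the highest. In myometrium it ranged from 6.55 to 147.9 CPM in WT (median 23.8) and from 0 to 144.6 CPM in KO (median 45.8). In order of the median, KO uterus came first, followed by KO endometrium, WT endometrium, WT uterus, KO myometrium and WT myometrium. The ranges of every pair of neighbours in this order overlapped.

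Sprr2g, a close paralogue of Sprr2f, had the lower median of the pair in all 6 groups. In WT endometrium it ranged from 11.8 to 296.9 CPM (median 66.1) and in KO endometrium from 9.35 to 712.1 CPM (median 81.4). The highest KO endometrium was that of mouse 14, not mouse 6. In uterus it ranged from 1.06 to 144.6 CPM in WT (median 55.3) and from 46.6 to 320.9 CPM in KO (median 76.4). In myometrium it ranged from 2.19 to 47.3 CPM in WT (median 10.7) and from 0 to 55.0 CPM in KO (median 9.89).

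Sprr1a, known from cornifying epithelia and induced in injured neurons, was near the detection floor in WT mice. In WT endometrium it ranged from 0 to 14.5 CPM with a median of 2.61 CPM, in WT uterus from 0.842 to 5.40 CPM (median 1.16), and in WT myometrium it had 1 count in all. In KO endometrium it ranged from 1.34 to 88.8 CPM (median 8.20), in KO uterus from 0 to 73.3 CPM (median 8.13) and in KO myometrium from 0 to 8.60 CPM (median 1.47). The values above 50 CPM belonged to the endometrium and uterus of mouse 6 and to the endometrium of mouse 14.

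**Figure D2:**
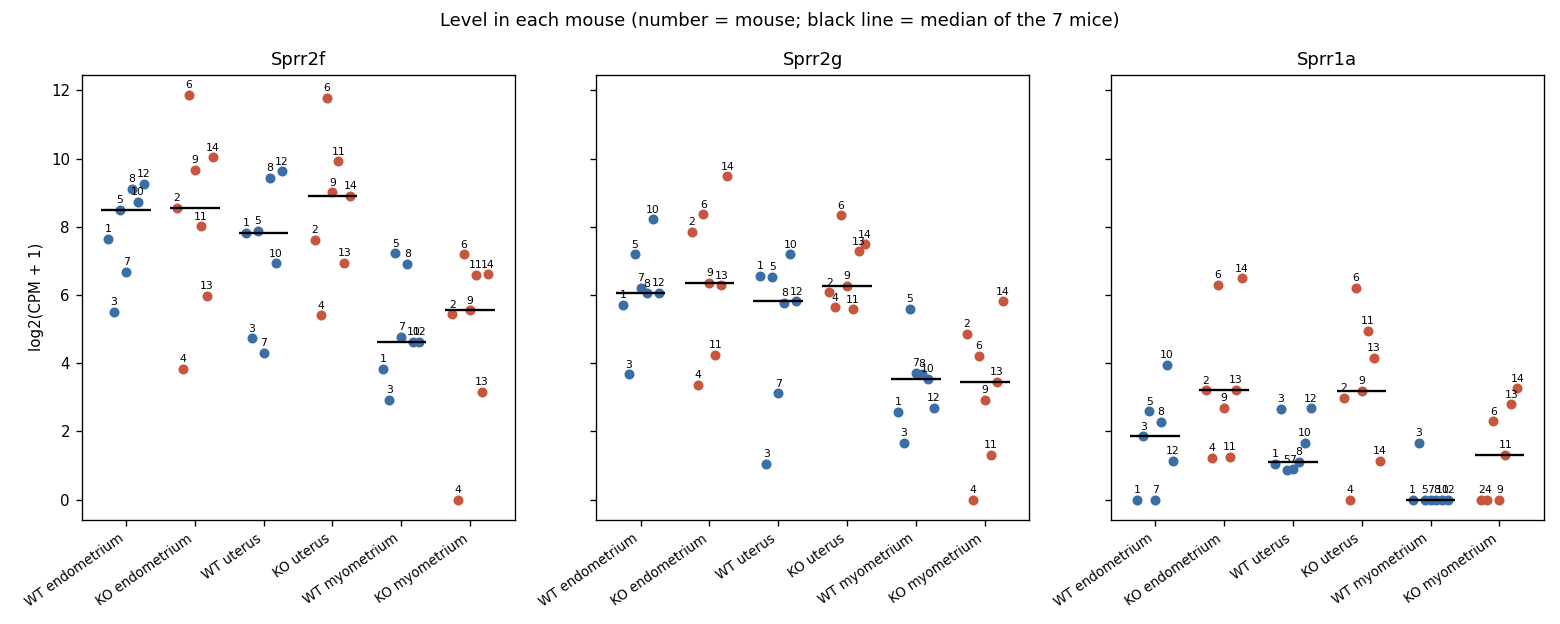
Levels of Sprr2f, Sprr2g and Sprr1a as log2(CPM + 1) in each mouse, with the mouse number beside the point and the group median as a line. All 3 genes are lowest in myometrium by median, and KO mouse 6 is the highest sample of Sprr2f in endometrium and uterus.

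Comparing layers within each mouse, Sprr2f was higher in endometrium than in myometrium in 7 of 7 WT and 7 of 7 KO mice. The median difference was 2.35 on the log2 CPM scale in WT (5.10-fold) and 3.08 in KO (8.46-fold), and differences ranged from 1.27 in mouse 5 to 4.66 in mouse 6. Sprr2g was likewise higher in endometrium in 14 of the 14 mice, with median differences of 2.35 in WT and 2.93 in KO. Sprr1a was higher in 5 of 7 WT and 6 of 7 KO mice, with smaller median differences of 0.535 and 1.60 on a scale that compresses low counts.

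Fitted with edgeR, the endometrium to myometrium log2 fold change of Sprr2f was 2.69 ± 0.55 (SE) in WT and 3.86 ± 0.84 in KO. That of Sprr2g was 2.95 ± 0.55 and 3.60 ± 0.76. That of Sprr1a was 3.12 ± 0.89 in KO. In WT, 20 counts of Sprr1a in endometrium faced 1 count in myometrium, a ratio of 19.8 after scaling by depth with a 95% counting interval of 3.17 to 821.

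Of the 9 members 3 passed the filter on low counts in each layer comparison, and these 3 were past the threshold in both. Among all genes tested, 13.2% were past it in WT (6.81% higher and 6.39% lower in endometrium) and 19.3% in KO (10.6% higher and 8.71% lower). The list was chosen with this contrast in view, so nothing is read from the count. The calls and adjusted p values of members that follow show only how the fits depend on settings. They are no test of the members. With the mouse as a replicate block 2 of the 3 were past the threshold in WT, the exception being Sprr1a (adjusted p 0.0546, edgeR), and 3 of 3 in KO. Sprr1a also missed it in WT without mouse 8 or mouse 10, failed the filter without mouse 3, and missed it in KO without mouse 6. With all 6 groups in a single fit its adjusted p in WT was 0.11, and 2 members were past the threshold there. Leaving out each mouse in turn, Sprr2f was 2.32 to 3.20 higher in WT and 3.15 to 4.13 in KO. The epithelial markers moved by a similar amount: the median log2 fold change of the 10 was 2.69 in WT and 3.01 in KO. Whether the members differed between layers beyond the share of epithelium was not tested, and in bulk samples fewer epithelial cells and less RNA per cell cannot be told apart.

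The scale of these differences depended on the reference. With ERCC spike-in scaling the median gene was 0.21 higher in endometrium in WT and 0.58 higher in KO on the log2 scale, and calls shifted to 953 higher and 464 lower in WT and to 2630 and 419 in KO, from 901 and 845 and from 1378 and 1130. Sprr2f was then 2.98 and 4.18 higher in endometrium, and remained above that shift in both genotypes.

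Whole uterus holds both layers, and single mice differed between endometrium and uterus in either direction. The median difference of Sprr2f between endometrium and uterus was 0.604 on the log2 scale in WT, higher in endometrium in 4 of 7 mice, and 0.089 in KO, also in 4 of 7 mice, with single mice between -1.90 and 2.27. Sprr2g was higher in endometrium than in uterus in 6 of 7 WT mice (median 0.644, up to 2.87 in mouse 7) and in 4 of 7 KO mice (median 0.037). Against myometrium, uterus had more Sprr2f in 6 of 7 WT and 7 of 7 KO mice, by medians of 2.22 and 3.41. The exception was WT mouse 7, with 18.8 CPM in uterus and 26.5 CPM in myometrium. Sprr2g was higher in uterus than in myometrium in 5 of 7 WT and 7 of 7 KO mice.

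**Figure D3:**
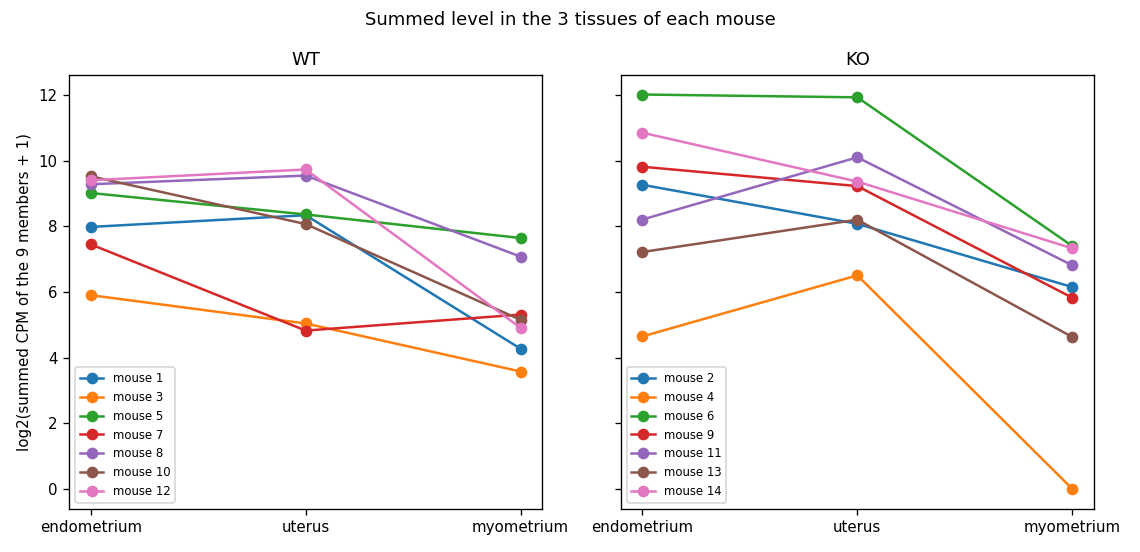
Summed level of the 9 members, as log2(CPM + 1), in endometrium, uterus and myometrium of each mouse, joined by a line for the mouse. The sum is lower in myometrium than in endometrium in all 14 mice, and mouse 6 stays highest among the KO mice in each tissue.

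Differences between mice recurred across tissues for Sprr2f and, less evenly, for Sprr2g. After centring on genotype, Sprr2f in endometrium correlated with Sprr2f in uterus at Pearson r = 0.85 (Spearman rho 0.719) and with Sprr2f in myometrium at 0.835 (rho 0.697), over 14 mice. Without the 2 mice farthest from the median, mice 4 and 6, the coefficients were 0.748 and 0.684. For Sprr2g they were 0.666 (rho 0.574) with uterus and 0.884 (rho 0.877) with myometrium. For Sprr1a they were 0.169 (rho 0.095) and 0.599 (rho 0.656), and the latter was 0.29 without mice 6 and 14. Between uterus and myometrium the coefficients were the lowest for Sprr2f and Sprr2g, at 0.733 (rho 0.648) and 0.479 (rho 0.411). For Sprr1a that coefficient was 0.24 (rho 0.202), and -0.123 without mice 4 and 6. The paired tissues came from the same animal, in separate libraries with their own depth.

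The sum of squares of log2 CPM was divided between tissue, genotype and mouse within genotype. The shares are not corrected for degrees of freedom, so noise alone gives mouse a larger share than tissue or genotype. Mouse took 54.9% for Sprr2f, 43.5% for Sprr2g and 32.6% for Sprr1a. The median over 5046 genes at a mean log2 CPM of 4 or more was 26.02%, and 97.8% of those genes had a smaller mouse share than Sprr2f. Sprr2f was chosen with differences between mice in view, and genes at lower levels than its mean of 7.06 carry more counting noise. Its rank is therefore a description only. Tissue took 34.2%, 39.8% and 16.01%, against a median of 22.1%. Genotype took 1.52% for Sprr2f, 2.35% for Sprr2g and 18.3% for Sprr1a, against a median of 1.02%. The remainder was 9.38%, 14.34% and 33.13%, against a median of 45.92%. Sprr1a, at a mean log2 CPM of 2.66, lay outside the genes that gave the medians, so its shares are not comparable with them.

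Within a tissue, the members rose and fell together most clearly in endometrium. Sprr2f and Sprr2g correlated at r = 0.74 (rho 0.71) in endometrium, 0.62 (rho 0.473) in uterus and 0.657 (rho 0.688) in myometrium. Without the 2 farthest mice these were 0.586, 0.512 and 0.401, and without mouse 3 alone 0.697, 0.538 and 0.618. Sprr1a correlated with Sprr2g at 0.816 (rho 0.73) in endometrium and at 0.086 (rho 0.068) in uterus, or 0.894 and 0.299 without mouse 3. With Sprr2f it did so at 0.656 (rho 0.596) and 0.512 (rho 0.503). Without the 2 farthest mice, Sprr1a correlated with Sprr2g at 0.701 in endometrium and 0.273 in uterus, and with Sprr2f at 0.409 and 0.323. The points share a library and its depth within each sample, and the coefficients are descriptions over 14 mice.

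The balance between the abundant paralogues differed widely between mice, and in some mice also between tissues. Sprr2f made up 44.6% of Sprr2f and Sprr2g counts in the endometrium of KO mouse 13 (95% Wilson interval 39.42 to 49.99), 44.2% in its uterus (36.4 to 52.3) and 44.4% in its myometrium (18.9 to 73.3). In KO mouse 6 the shares were 91.9% (90.8 to 92.9), 91.6% (90.5 to 92.6) and 89.2% (80.7 to 94.2). In KO mouse 11 they were 93.5% (89.2 to 96.1), 95.4% (93.1 to 97.0) and 98.5% (91.9 to 99.7). These intervals cover counting error only, and those of mouse 13 in endometrium and uterus did not reach those of mice 6 and 11.

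WT mice covered a similar span. Sprr2f made up 89.4% of the counts of both genes in the endometrium of WT mouse 8 (86.4 to 91.9) and 92.8% in its uterus (90.6 to 94.6). In WT mouse 10 it made up 58.9% in endometrium (54.9 to 62.7) and 45.5% in uterus (39.4 to 51.8), again without overlap of the intervals. Among mice with at least 20 counts of both genes, group medians in endometrium were 79.1% in WT (7 mice) and 76.4% in KO (6 mice), and in uterus 72.0% and 74.7% (7 mice each).

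Across the 13 mice with at least 20 counts in both samples, the share in endometrium correlated with that in uterus at r = 0.862 (rho 0.736, and 0.807 without the 2 farthest mice). The median absolute difference between endometrium and uterus of a mouse was 3.84 percentage points and the largest was 16.9, in WT mouse 3, whose uterus held 25 counts of both genes. In KO mouse 14 the shares were 59.6% (56.5 to 62.6) and 72.8% (68.9 to 76.4), and these intervals did not overlap. Those of KO mouse 2, at 61.95% (58.2 to 65.6) and 74.7% (69.2 to 79.6), did not overlap either. Across 8 mice the endometrium share correlated with the myometrium share at 0.928 (rho 0.833). Uterus and myometrium were the least alike, at 0.715 over 8 mice (rho 0.714), with a median difference of 6.46 points and a largest of 23.4 in mouse 10, at 45.5% and 69.0%. Whether sequence differences between the CD-1 females and the reference affect how reads of these copies were assigned was not tested.

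**Figure D4:**
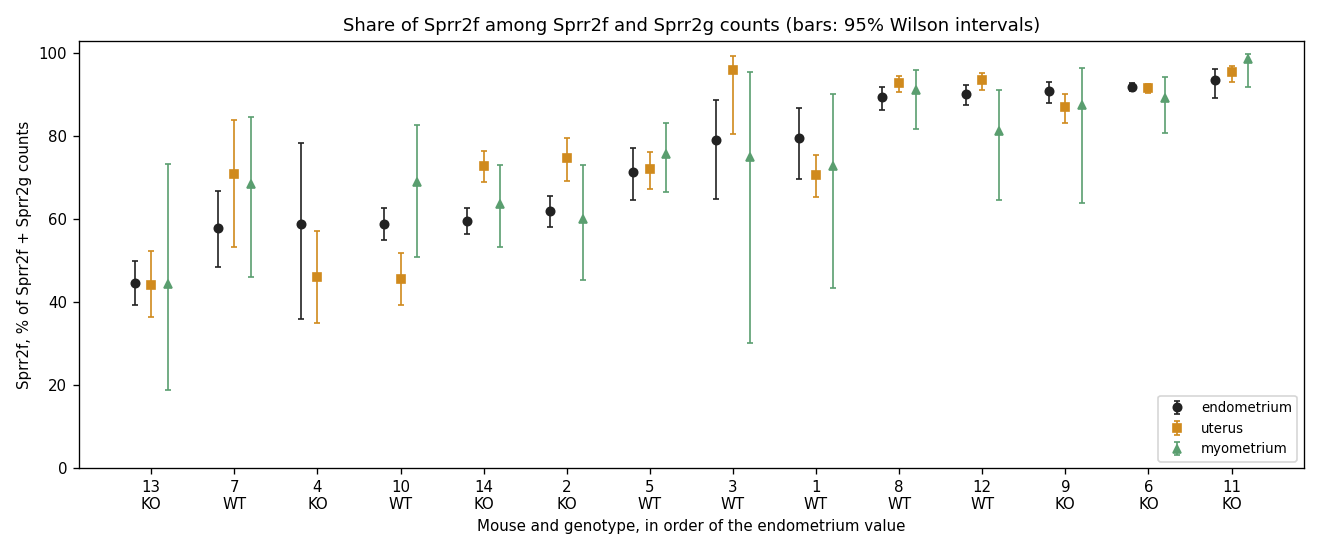
Sprr2f counts as a percentage of Sprr2f plus Sprr2g counts in each tissue of each mouse, in order of the endometrium value, with 95% Wilson intervals. Endometrium values run from 44.6% in mouse 13 to 93.5% in mouse 11 with both genotypes spread along the order. The endometrium and uterus intervals of mice 2, 10 and 14 do not overlap.

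Most other genes of the cornified envelope were not detected. Of 61 genes on this list, other Sprr genes and neighbours in the complex included, 57 were in the table, 20 had a count and 37 had none. The Lce genes, the largest group of the list, were all at 0, and loricrin (Lor) and involucrin (Ivl) passed the filter on low counts in some comparisons only. The most abundant were Tgm2, a transglutaminase found in many tissues, with a mean of 246.3 CPM, the protease inhibitor Cstb (193.3 CPM), the phospholipid-binding Anxa1 (77.3 CPM) and the junctional linker Ppl (11.9 CPM).

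In WT mice 3 of 8 tested genes of that list were higher in endometrium than in myometrium and 0 lower, and in KO mice 5 of 11 were higher and 0 lower (edgeR, adjusted p under 0.05). Ppl was higher by 1.91 ± 0.57 in WT and 2.92 ± 0.47 in KO (log2 ± SE), with adjusted p of 0.0248 and 8.4e-05. Tgm2 was higher in KO by 1.97 ± 0.44 (adjusted p 0.00262) and differed by 0.492 ± 0.284 in WT (adjusted p 0.293). Its endometrium medians were close, at 281.2 CPM in WT and 293.7 CPM in KO, while the highest samples had 326.5 and 1908 CPM. How far the KO value rests on that highest sample was not tested. Cstb differed by 0.041 ± 0.215 and 0.06 ± 0.235 and passed in neither genotype. The median log2 fold change of the tested genes was 0.589 in WT and 1.197 in KO, against 0.005 and 0.075 over all genes tested.

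Markers of stratified squamous epithelium, the tissue of vagina and skin, were low. Of 18 such genes 13 had a count and 5 had none (Krt6a, Krt16, Dsg1a, Dsc3 and Calm4). The most abundant, Sbsn and Krt10, had means of 14.5 and 14.1 CPM. The sum of the list was 3.03 to 55.1 CPM in endometrium, 24.3 to 53.9 CPM in uterus and 13.1 to 80.8 CPM in myometrium, and 1 of 3 tested genes was lower in endometrium in either genotype. In endometrium the correlation of the summed members with these markers was 0.104 (rho 0.059), in uterus -0.12 (rho -0.077) and in myometrium 0.396 (rho 0.42). With the uterine epithelium list it was 0.793 in endometrium (rho 0.741), or 0.56 without mice 3 and 4, which had the lowest Sprr sums in endometrium. It was 0.412 in uterus (rho 0.521) and 0.358 in myometrium (rho 0.371). The scraping with the most muscle, that of WT mouse 3, also had the lowest summed members of the WT endometria, at 58.8 CPM. Without mouse 3 the endometrium value was 0.76. Without WT mouse 8, whose scraping held oviduct markers, it was 0.791, and without KO mouse 13, the other scraping with muscle, it was 0.787. With mouse 13 left out and then mice 3 and 4, it was 0.433. With ERCC spike-in scaling and all mice, it was 0.616 in endometrium (rho 0.569) and 0.481 in uterus (rho 0.591). With the smooth muscle list the endometrium correlation was -0.41 (rho -0.27), or -0.276 without mouse 3. Depth also varied with the summed members. In uterus they correlated with log2 gene counts at -0.522 (rho -0.613) and with log2 spike-in counts at -0.543 (rho -0.543). In endometrium these values were -0.201 and -0.147. The part of depth was not tested.

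A list of 16 genes taken as oestrogen-responsive in uterine epithelium included lactotransferrin (Ltf) and complement C3. Krt19 was on this list and among the epithelial markers, so the lists are not separate. The oestrogen-responsive list was higher in endometrium for 12 of 15 tested genes in WT and 13 of 15 in KO, with 0 lower. The summed level of this list was highest in KO mouse 6 in both endometrium (20730 CPM, group median 5834) and uterus (17550 CPM, group median 6038), the same animal in which Sprr2f was highest. The iron-carrier binding protein gene Lcn2 was the most abundant of the list, at a mean of 2253 CPM. Its highest values were 13910 CPM in KO endometrium and 12940 CPM in KO uterus, against 2697 and 2598 CPM for Ltf. A high sum of the list can therefore rest largely on Lcn2. Over 14 mice the summed members correlated with the list at 0.384 in endometrium (rho 0.284) and 0.496 in uterus (rho 0.534). Leukocyte markers also summed highest in mouse 6, at 201.8 CPM in KO endometrium and 156.8 CPM in KO uterus, against medians of 59.7 and 91.1 CPM. Of these markers Cd68 alone reached 150.2 and 121.6 CPM in those groups, while Ptprc reached 41.91 and 40.65 CPM at most. The part of either list in the family's level was not tested.

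Of the 13 S100 genes of the same complex, 7 were tested in WT, where 1 was higher and 1 lower in endometrium, and 8 in KO, where 1 was higher and 2 lower. S100a11, a calcium-binding protein gene, was the most abundant at a mean of 1030 CPM and S100a10 followed at 598.8 CPM. Of the markers of other cell types, stroma was lower in endometrium for 5 of 7 genes in WT and 6 of 7 in KO, and mesothelium for 0 of 3 and 2 of 3. Leukocyte markers were higher for 0 of 4 and 1 of 4 tested genes, and oviduct markers for 2 of 2 and 2 of 3.

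Among 5044 genes at a mean log2 CPM of 4 or more, those whose endometrium levels followed the summed members most closely over 14 mice, after centring on genotype, were Dcxr (r = 0.885), Pllp (0.857), Pycard (0.83), Wfdc10 (0.817), Casp4 (0.811) and Cdo1 (0.807). Dcxr encodes a xylulose reductase, Pycard the adaptor of inflammasomes and Cdo1 a cysteine dioxygenase. In uterus, which did not enter the ranking, the coefficients of the same 6 genes were 0.694, 0.379, 0.675, 0.451, 0.493 and 0.782. Over all 42 samples without centring, the closest were Dcxr (0.835), the surface mucin gene Muc1 (0.831), Gsto1 (0.816), Fxyd4 (0.814), the epithelial transcription factor gene Elf3 (0.791) and Dgat2 (0.787). The latter ranking includes the difference between layers.

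The genotype comparison was not named among the differences in view when the members were chosen, and it was tested. Differences between mice were in view and enter this comparison too, so it is not independent of the choice. In whole uterus 3 members passed the filter (Sprr1a, Sprr2f and Sprr2g), and 0 of them differed between KO and WT at an adjusted p under 0.05 by edgeR or by DESeq2. Over all genes edgeR called 0 of 12959 (0%), and DESeq2 called 7. At an unadjusted p under 0.05 edgeR had 1 of the 3 members, Sprr1a, against 5.64% of all genes.

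Sprr1a had the smallest p of the members in each tissue. In uterus its log2 fold change was 2.97 ± 0.79 (SE), with an unadjusted p of 0.00102. The adjusted p was 0.57 by edgeR, 0.0984 by DESeq2, and 0.0984 to 0.889 over 21 alternatives. Of the 7 KO mice 5 lay above the highest WT mouse, and mouse 4, with 0 counts, and mouse 14, with 1, did not. The fold change was 2.01 without mouse 6 and 2.01 to 3.30 over all mice left out in turn.

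Sprr2f in uterus was 1.44 ± 0.77 higher in KO on the log2 scale, with an adjusted p of 0.872. Mouse 6 decided its size: without it the difference was 0.338. Sprr2g was 0.978 ± 0.566 higher with an adjusted p of 0.889. Libraries were arranged by plate row, so the mean log2 levels were also compared among mice 1 to 8 (rows A, B and C, with 5 WT) and among mice 9 to 14 (the remaining rows, with 2 WT). Sprr2f was 1.41 higher in KO in the former and 0.414 higher in the latter. Sprr1a was 1.55 and 1.03 higher. With ERCC spike-in scaling the median gene was 0.374 lower in KO, and Sprr1a was 2.60 higher, with an adjusted p of 0.264.

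In endometrium 0 of the 3 tested members passed (edgeR 0 of 13004 genes, 0%, and DESeq2 1). Sprr1a alone was under an unadjusted p of 0.05, against 5.2% of all genes. Its log2 fold change was 2.60 ± 0.85 (SE) and its adjusted p 0.855, and 2 of 7 KO mice, mice 6 and 14, lay above the highest WT mouse. Without mouse 14 the value was 1.92.

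Sprr2f in endometrium was 1.47 ± 0.73 higher in KO with an adjusted p of 0.958 by edgeR, and 0.378 higher without mouse 6. The group medians, 359.5 CPM in WT and 375.3 CPM in KO, were close, and the fitted difference follows the mean. Sprr2g was 1.03 ± 0.67 higher with an adjusted p of 0.966, and 0.286 higher without mouse 14. The KO to WT difference of the mean log2 level of Sprr2f was 0.637 among mice 1 to 8 and -0.561 among mice 9 to 14, so its sign was not the same in both blocks of plate rows. That of Sprr1a was 1.75 and 0.724. With ERCC spike-in scaling the median gene was 0.272 higher in KO, and Sprr2f was 1.37 higher with an adjusted p of 0.902.

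In myometrium 0 of the 3 tested members passed (edgeR 0 of 12991 genes, 0%, and DESeq2 0), and Sprr1a alone was under an unadjusted p of 0.05, against 4.22% of all genes. Its fitted log2 fold change, 2.82 ± 1.01 with an adjusted p of 0.99, rested on 11 counts in KO and 1 in WT. The ratio was 12.9 with a 95% counting interval of 1.88 to 557. Those counts lay in 4 KO mice and 1 WT mouse, the fewest samples with which a gene passes the filter. Sprr1a thus entered this test mainly through the KO group, and nothing is read from its p against the share of all genes. Sprr2f was 0.281 ± 0.556 higher in KO and Sprr2g 0.397 ± 0.593 higher, each with an adjusted p of 1. Among mice 1 to 8 and 9 to 14 the differences in mean log2 level were -0.547 and 0.844 for Sprr2f, and 0.261 and 1.10 for Sprr1a. Both fitted values changed sign when 1 mouse was left out, Sprr2f to -0.037 without mouse 6 and Sprr2g to -0.254 without mouse 14.

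**Figure D5:**
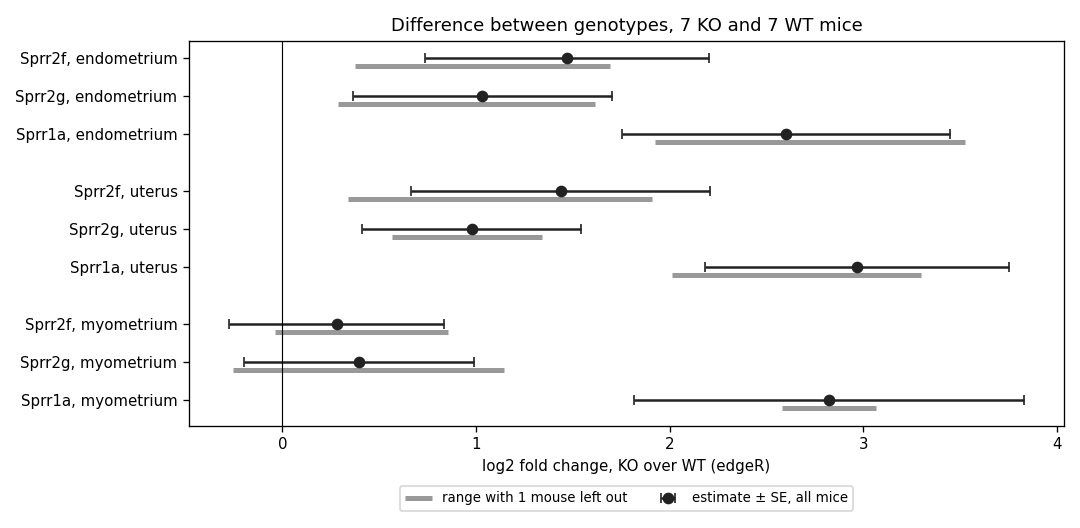
KO to WT log2 fold changes of Sprr2f, Sprr2g and Sprr1a in endometrium, uterus and myometrium. Points and thin bars give the estimate with its approximate standard error, and grey the range when 1 mouse is left out. Sprr1a stays above 0 in endometrium and uterus. In myometrium its range covers only fits that left out a mouse with no Sprr1a count, since the other fits failed the filter. The ranges of Sprr2f and Sprr2g in myometrium include 0.

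Among the other lists, 0 genes passed between genotypes in any tissue. The epithelial markers had a median KO to WT log2 fold change of 0.542 in uterus, 0.42 in endometrium and 0.154 in myometrium, against medians over all genes of -0.05, 0.017 and -0.031. The oestrogen-responsive list had medians of 0.788, 0.704 and 0.45. The part of these in the members' values was not tested.

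Finally, the endometrium to myometrium difference was compared between genotypes by an interaction test. It was passed by 0 of 14314 genes (0%) in edgeR and 0 in DESeq2, while edgeR had 658 genes at an unadjusted p under 0.05. Of the members 5 could be tested, 0 passed and 0 were under an unadjusted p of 0.05. Sprr2f had the smallest p, with a layer difference 1.196 ± 1.049 larger in KO (log2 ± SE) and an adjusted p of 0.993. The value was 0.655 ± 1.045 for Sprr2g and -0.308 ± 0.715 for Sprr1a. Sprr2b and Sprr2d had -0.063 ± 1.027 and 0.881 ± 1.85. Sprr2d had 14 counts in KO endometrium and 2 in KO myometrium, against 1 and 0 in WT. It thus entered this test mainly through the KO group, and nothing is read from its value. All 9 counts of Sprr2b in KO myometrium were in mouse 11. The approximate SE of Sprr1a was below those of both its layer differences (0.988 in WT and 0.893 in KO), so it is not read as a spread. The value of Sprr2f was 0.452 without mouse 6. In the paired fit that took each animal as a replicate block, the values were 0.441 ± 0.386 for Sprr2f and 0.583 ± 0.479 for Sprr2g, each with an adjusted p of 1. The approximate SEs of the paired fit were below those of the unpaired fit for both genes.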

How the data were processed

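STRT RNA-seq libraries of uterus, endometrium and myometrium from 7 WT and 7 KO mice were analysed (8 per genotype are stated for the study). The authors deposited raw counts for 24422 genes and 92 ERCC spike-ins in 45 libraries. Per the methods of the study, reads were joined by molecular identifier, aligned to mm9 with TopHat and counted with Homer, while the submitters' processing notes name HTSeq. Treatment of reads with several matches and strand in counting are not given in the sources used here, so counts of near-identical copies are uncertain.

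The members and all lists were chosen with earlier results of these data known. The 3 libraries of KO mouse 13 endometrium and the 2 of WT mouse 12 myometrium were summed. Libraries had 264095 to 1232992 counts, spike-ins included. The filter on low counts kept genes reaching 1 CPM in 5 or more of the samples compared. The tool was edgeR 4.0.16 (TMM factors, quasi-likelihood F test, R 4.3.3), without the spike-ins, with Benjamini-Hochberg adjustment over all genes and a threshold of 0.05. SEs of edgeR fold changes were calculated back from the F statistic and are approximate. CPM used TMM sizes over the 42 samples, log2 CPM a prior count of 2, and the summed members log2(CPM + 1).

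In each genotype test, values were named for the 3 most abundant members and the one with the smallest p. Up to 4 genes a list were considered, by mean CPM, and the 6 genes most like the members. Alternatives were DESeq2 1.42.0, other scaling and filters, a single fit of 6 groups, single repeat libraries, plate rows as a term, each mouse left out, and the mouse as a replicate block. Tissues were paired by mouse number. Over 5046 genes, deviations from group means correlated within a mouse at medians of 0.139 to 0.216 between tissues, against -0.033 to -0.013 between mice. The code of the fits was run on simulated counts with planted changes. The spread of those counts was fixed and not taken from the members, so nothing follows for the power to detect changes in them. Promoters came from RefSeq (GRCm38.p6) and transcripts from GENCODE on mm9.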

Additional observations from a re-analysis of the deposited data

Results flagged for a closer look

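Of 36 groups of 7 mice with any count of a gene, or of the summed members, 10 had a sample far from the other 6. Chance flags about 1 in 20 groups of ordinary values. That rate does not apply to most of these, which are genes near the floor: in 5 of the 10, a single mouse had a count and the other 6 had 0.

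Sprr2b in KO mouse 11 stood above the rest of its group in all 3 tissues, at a log2 CPM of 4.917 in uterus, 4.369 in endometrium and 3.989 in myometrium. The next values were 2.657, 2.068 and 1.42, the last of which is a count of 0. In WT mice Sprr2b stood apart in the endometrium of mouse 5 (3.346, 3 counts) and the uterus of mouse 1 (1.9, 1 count).

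Sprr2d stood apart in the endometrium of KO mouse 6, at 4.485 from 13 counts, and in that of WT mouse 8, at 1.983 from 1 count. Sprr2e stood apart in the endometrium of KO mouse 2, at 1.843 from 1 count. Sprr1a stood apart in the myometrium of WT mouse 3, at 2.281 from 1 count. The summed members were at 0 (log2(CPM + 1) of 0.0) in the myometrium of KO mouse 4, while the next lowest KO myometrium was at 4.628.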

How the results depend on the processing

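Under every alternative run, 0 members passed between genotypes or in the interaction. Counts over all genes moved from 0 in some fits: to 7 in uterus and 1 in endometrium with DESeq2, to 7 in endometrium with all 6 groups in a single fit, and in myometrium to 1 with spike-in scaling and 3 with no filter on low counts. Leaving out 1 mouse gave 0 to 1 in uterus and 0 to 1 in myometrium, and 1158 (without mouse 10) to 1825 between layers in WT. With the mouse as a replicate block, which uses the pairing of tissues, 10 genes passed the interaction, 1850 the layer comparison in WT and 2776 that in KO. The block changed no other call of a member than that of Sprr1a in WT.

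With 1 mouse left out, signs turned for Sprr2f in myometrium between genotypes (-0.037 without mouse 6, 0.857 at most), for Sprr2g there (-0.254 without mouse 14, 1.146 at most), and in the interaction for Sprr2g (-0.001 without mouse 5, 1.295 at most) and Sprr1a (-1.603 to 0.795, with 0.795 without mouse 10 and 0.157 without mouse 13). The myometrium correlations of Sprr1a turned to -0.116 with Sprr2f and -0.207 with Sprr2g without the 2 farthest mice. The cause was not tested. Sprr1a in myometrium could be fitted without 9 of the 14 mice in turn, since it failed the filter in the other fits. Those other fits left out mouse 3, 6, 11, 13 or 14, the only mice with a Sprr1a count in myometrium. How far its value there rests on any of them is therefore not known. An unadjusted p under 0.05 in uterus was reached by 1 of 3 tested members, by 3 of 5 with all 6 groups in a single fit (1030 of 14822 genes) and by 4 of 6 with no filter (1041 of 16309 genes). Sprr2b and Sprr2d, the members added in both, had counts in 2 KO uteri each, so nothing is read from the 3 of 5 and 4 of 6. Leaving out mouse 3 in the correlations was chosen after seeing the data. Depth limits Sprr1a, Sprr2b, Sprr2d and Sprr2e, most of whose values are under 3 counts.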
